A study of Mus musculus with 67 samples.

Results

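AP-1 and immediate early genes were followed here as 10 genes: *Fos*, *Fosb*, *Fosl2*, *Jun*, *Junb*, *Jund*, *Atf3*, *Egr1*, *Ier2* and *Dusp1*. They were taken by symbol from a bulk RNA-seq table of 29579 genes, and all 10 were listed. Each passed the filter on low values, a mean of at least 1 TPM (a relative abundance scaled by transcript length and by the total of each library) over the libraries compared, in every comparison.

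Immediate early genes are transcribed within minutes of a growth factor, a stress or a mechanical stimulus, without new protein synthesis. AP-1 is a dimer of basic leucine zipper proteins. FOS proteins do not pair with one another and act mainly with JUN proteins, whereas JUN proteins also pair with one another and with ATF3, which often acts as a repressor. EGR1 and IER2 are induced beside them and are not AP-1 subunits. Mitogen-activated protein kinases (ERK, JNK and p38) turn these genes on through ternary complex factors, serum response factor and CREB, and phosphorylate the JUN proteins. DUSP1 is a phosphatase that removes the activating phosphates from p38 and JNK. In the intestine, EGF signalling, irradiation and the handling of tissue are all known to induce this programme.

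The series holds 67 mouse libraries, 49 from small intestinal organoids in 10 culture conditions and 18 from crypts in 9 groups of 2. Organoids, epithelial cultures grown from crypts of mice aged 6 to 12 weeks, were kept in ENR medium (EGF 50 ng/mL, Noggin 100 ng/mL and R-Spondin1 500 ng/mL, n = 7) or in 8C medium (n = 7). 8C combined EGF at 50 ng/mL, bFGF at 20 ng/mL, R-Spondin1 conditioned medium at 10%, the BMP receptor inhibitor LDN193189 at 0.2 µM, GSK3iXV at 0.1 µM, the p38 and Tie2 inhibitor Pexmetinib at 1 µM, the histone deacetylase inhibitor VPA at 500 µM and the EZH2 inhibitor EPZ6438 at 2 µM. The remaining organoids lacked VPA (8C -V, n = 6), EPZ6438 (8C -E, n = 7) or both (8C -VE, n = 7), lacked EGF, bFGF, Pexmetinib or GSK3iXV (8C -EGF, 8C -bFGF, 8C -Pex and 8C -GSK3i, n = 3 each), or received VPA and EPZ6438 in ENR (ENR +VE, n = 3), at doses the labels do not give. Crypts came from unirradiated 8-week-old female C57BL/6 mice (Normal) and from mice 1, 2, 3 or 5 days after 12 Gy, either irradiated alone (IR) or gavaged daily with VPA at 40 mg/kg and EPZ6438 at 0.6 mg/kg (IR +VE). The study's legends count 3 mice for expression in ENR and 8C organoids, and also count mice for the omission cultures and the day 3 crypts, but do not tie single libraries, such as the 7 each of ENR and 8C, to animals. P-values therefore measure the spread between libraries, part of which may be technical.

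Only TPM values were given, and the number of reads behind them is unknown. The listed TPM summed to 983801 to 988144 in organoid libraries and to 819346 to 910935 in crypt libraries, and mitochondrial genes took 1.52% to 6.64% and 10.6% to 48.4% of it. The mitochondrial gene *mt-Atp8* alone read 52861 to 243105 TPM in crypts (median 138972) and 0 to 14.8 TPM in organoids, so this gene made up much of the mitochondrial share in crypts. Levels were therefore not compared between the organoid and crypt libraries. The summed immune cell markers (9 genes) reached at most 11.8 TPM in organoids. In crypts they reached 74.1 TPM, stromal and endothelial markers summed to at most 6.31 TPM and muscle markers to at most 5.03 TPM. Because these are bulk libraries, fewer cells that express a gene and less RNA per cell cannot be told apart.

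The promoters of the members are shown because the genes moved together in these data, and short response elements for the upstream factors can be read directly from them. RefSeq promoters on GRCm38.p6 were found for 8 of the 10 members. *Ier2* and *Egr1* had no entry. The 250 bases before the start were searched on both strands for the AP-1 element TGANTCA, the cAMP response element (CRE) TGACGTCA, its core TGACG, which lies within it, the TATA box TATAAA and the CArG box that serum response factor binds. TGANTCA was in 0 of 8 promoters and in 6.75% of all 32851. TGACGTCA was in 1 of 8, *Dusp1*, at -143 to -136 from the start, and in 1.55% of all. The core TGACG was in 5 of 8, *Fos*, *Fosb*, *Junb*, *Atf3* and *Dusp1*, and in 17.8% of all. It was added to the search after the sequences were seen, so this share is a description and no test. TATAAA was in 1 of 8, *Fos*, at -33 to -28, and in 12.4% of all. None of the 8 had a CArG box match in these 250 bases, against 1.47% of all. Bases further upstream, and the promoters of *Ier2* and *Egr1*, were not searched. The 150 bases before the start of the 5 genes with the core, and of *Jun*, which has none of these letters, read 5′ to 3′ on the coding strand with the matched letters in capitals:
Fos (chr12:85473740-85473889, forward strand): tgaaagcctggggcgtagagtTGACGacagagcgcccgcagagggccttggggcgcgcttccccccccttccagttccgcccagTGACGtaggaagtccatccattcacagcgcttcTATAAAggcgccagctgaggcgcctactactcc
Fosb (chr7:19310046-19310195, reverse strand): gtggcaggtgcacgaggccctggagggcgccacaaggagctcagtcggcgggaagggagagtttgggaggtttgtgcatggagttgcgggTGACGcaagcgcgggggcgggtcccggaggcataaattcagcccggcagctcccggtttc
Junb (chr8:84978749-84978898, reverse strand): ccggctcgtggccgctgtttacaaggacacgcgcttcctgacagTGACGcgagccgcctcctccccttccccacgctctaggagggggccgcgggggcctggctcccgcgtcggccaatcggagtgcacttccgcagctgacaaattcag
Atf3 (chr1:191183334-191183483, reverse strand): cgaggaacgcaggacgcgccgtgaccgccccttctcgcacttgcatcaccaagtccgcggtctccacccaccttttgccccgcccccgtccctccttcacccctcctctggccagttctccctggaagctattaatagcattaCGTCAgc
Dusp1 (chr17:26508473-26508622, reverse strand): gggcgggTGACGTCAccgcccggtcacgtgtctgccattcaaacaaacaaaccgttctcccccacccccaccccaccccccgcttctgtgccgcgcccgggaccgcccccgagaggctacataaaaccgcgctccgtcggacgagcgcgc
Jun (chr4:95052223-95052372, reverse strand): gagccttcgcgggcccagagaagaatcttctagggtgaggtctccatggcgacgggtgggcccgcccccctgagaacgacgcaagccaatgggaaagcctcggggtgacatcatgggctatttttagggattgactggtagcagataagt

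*Fos*, the short-lived partner of the JUN proteins, and *Ier2*, a small nuclear protein of the same response, were the most abundant members in organoids, with means of 599.5 and 564 TPM over the 49 libraries. Their order depended on the measure, since the median was 437 TPM for *Fos* and 544 TPM for *Ier2*. *Jund*, the most constantly expressed JUN gene, followed with a mean of 349 TPM and *Egr1*, a zinc finger factor induced through serum response factor, with 311 TPM. *Jun*, the main AP-1 partner, averaged 263 TPM, *Junb*, often its antagonist, 153 TPM and *Atf3* 120 TPM. *Fosb*, *Dusp1* and *Fosl2* were lowest, at 67.3, 34.6 and 26.7 TPM. The spread over libraries differed as widely as the level. *Fosb* ranged 93.4-fold from the lowest to the highest organoid library, *Atf3* 39.3-fold and *Fos* 23.6-fold, whereas *Ier2* ranged 4.58-fold and *Jund* 2.94-fold.

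8C -EGF had the highest mean of the 10 organoid conditions for 9 members, the exception being *Fosl2*, which was highest in ENR at 32.6 ± 16.01 TPM (SD, n = 7). Either ENR +VE or 8C -V was lowest for all 10, but neither has a library numbered 7. In ENR, 8C, 8C -E and 8C -VE that library was the highest for every member, which raises the mean. Its part in the order was not tested. Few steps in that order exceeded the spread. Only for *Jun*, *Egr1* and *Ier2* was 8C -EGF above the next condition by more than the larger of the SDs, at 661 ± 126 against 374 ± 79.9 TPM in 8C -bFGF for *Jun* (SD, n = 3 each). For *Fosl2* the step from 8C -V to ENR +VE also exceeded it. Every other pair of neighbours differed by less than the larger SD.

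**Figure D1:**
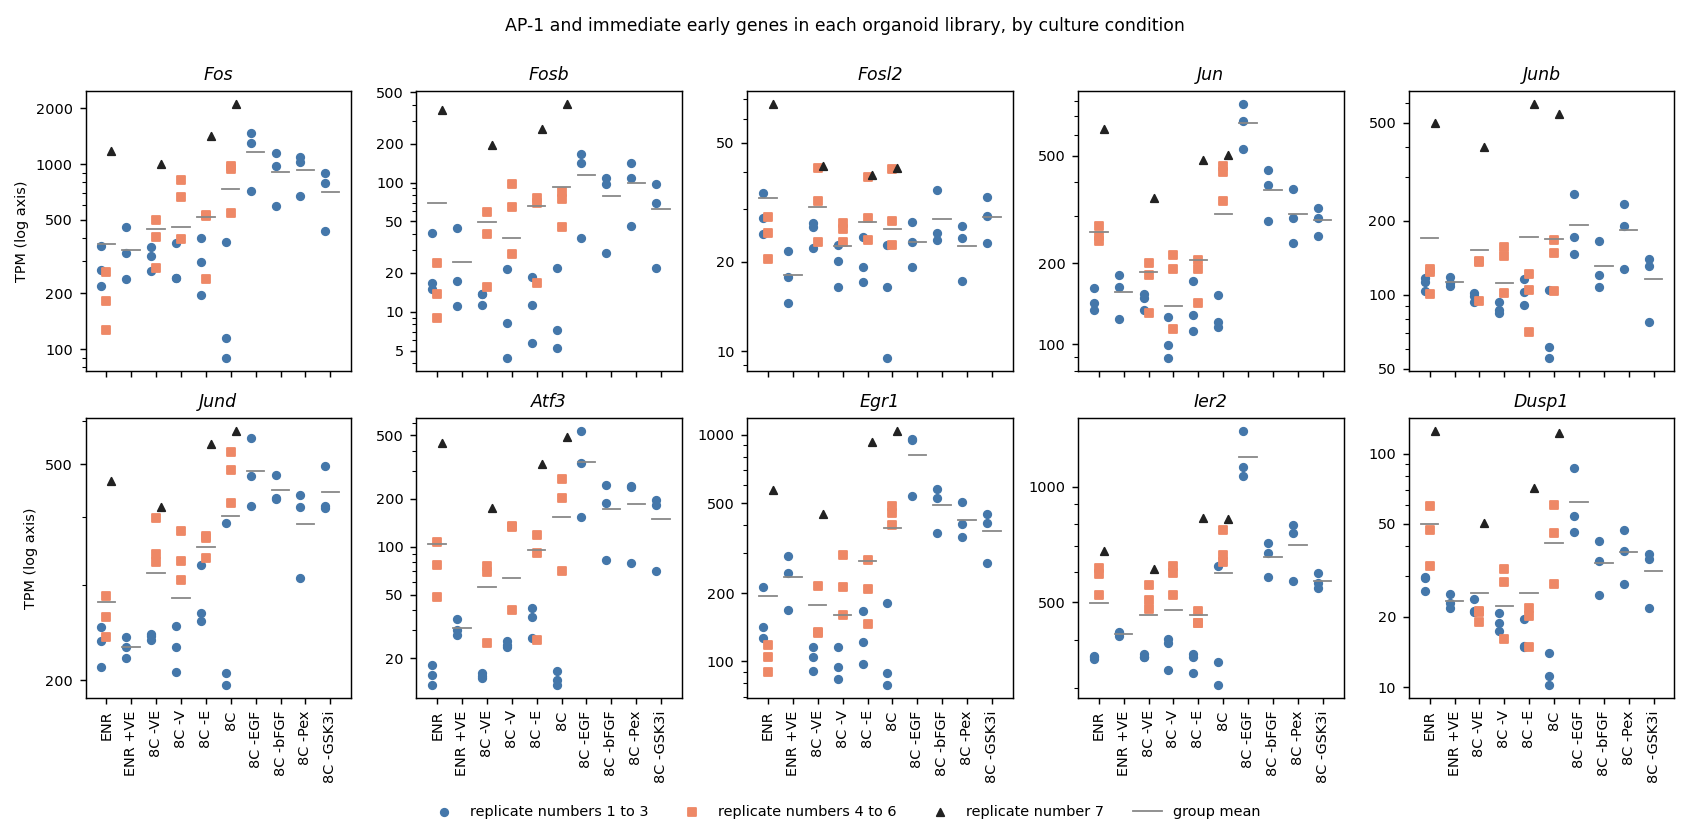
TPM of each member (log axis) in every organoid library, by culture condition, with a line at the group mean and the marker shape giving the replicate number. Libraries numbered 7 (triangles) are the highest of their condition in every panel, and in 8C the libraries numbered 4 to 6 (squares) lie apart from those numbered 1 to 3 (circles) for *Jun*, *Egr1*, *Atf3*, *Fosb* and *Dusp1*.

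Much of the spread within a condition went with the replicate number in the labels. ENR, 8C, 8C -E and 8C -VE each have a library numbered 7, and it was the highest of its condition in 40 of the 40 combinations of member and condition, compared with 20.9% over all genes tested. *Fos* in 8C read 89.5, 381.5 and 114.5 TPM in replicates 1 to 3, 978, 944 and 542 TPM in replicates 4 to 6 and 2113 TPM in replicate 7. *Atf3* in 8C read 13.6, 16.5 and 14.7 TPM in replicates 1 to 3, 267, 202 and 69.9 TPM in replicates 4 to 6 and 484 TPM in replicate 7. Replicates 4 to 6 did not overlap replicates 1 to 3 for either gene. Over the 5 conditions with replicates 1 to 6, the mean of replicates 4 to 6 exceeded that of 1 to 3 in 44 of 50 combinations, compared with 38.7% over all genes, and every library did so in 28, compared with 19% over all genes. Of the other 6, 4 were in ENR, where the ratio of the means was 0.67 for *Fos*, 0.64 for *Fosb*, 0.85 for *Fosl2* and 0.65 for *Egr1*. The remaining 2 were *Junb* in 8C -E (0.96) and *Dusp1* in 8C -VE (0.93).

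With condition as a term in limma, *Atf3* was 1.98 ± 0.25 higher (log2, SE, adjusted p = 1.42e-07) and *Fosb* 1.57 ± 0.34 higher (adjusted p = 0.000214) in replicates 4 to 6 than in 1 to 3. These were the 2 members called at an adjusted p under 0.05 and at least 2-fold, a rule that called 3.92% of all genes. The other 8 differed by 0.36 to 0.78, under 2-fold, with adjusted p of 0.0136 or less, and the median over members was 0.65 against -0.13 over all genes. This test was added after the levels were seen. The labels do not say what a number stands for. Summed red blood cell markers (5 genes) ran from 0 to 3.26 TPM in replicates 1 to 3, from 2.00 to 6.79 TPM in 4 to 6 and from 0 to 0.71 TPM in 7. The mitochondrial share of TPM was 1.61% to 3.81%, 1.64% to 3.00% and 4.69% to 6.64%, and summed immune markers were 1.29 to 8.56, 3.31 to 11.3 and 2.97 to 11.8 TPM. Their part in the difference was not tested.

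The comparison of 8C with ENR asks how the full medium acts on the members. No member was called with all 7 replicates of each medium, against 15.2% of genes, and 0 had an unadjusted p under 0.05, against 43% of genes. *Fos* ran from 89.5 to 2113 TPM in 8C (median 542) and from 126 to 1179 TPM in ENR (median 260.3). *Egr1* ran from 78.7 to 1043 TPM in 8C (median 401) and from 89.7 to 568.1 TPM in ENR (median 127). The groups overlapped for all 10 members, whereas 13.9% of genes lay wholly higher and 3.37% wholly lower in 8C. The log2 difference was 0.68 ± 0.65 for *Fos* (SE, 95% interval -0.69 to 2.06) and 0.79 ± 0.55 for *Egr1* (interval -0.36 to 1.95).

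Within replicate sets the same comparison gave different answers. In replicates 4 to 6, *Fos*, *Fosb* and *Egr1* rose in 8C by 2.12, 2.11 and 2.09 on the log2 scale (limma adjusted p = 0.0026, 0.0034 and 1.2e-06), 3 of 10 members beside 17.3% of genes called. For *Fos* these libraries read 978, 944 and 542 TPM in 8C and 182, 260.3 and 126 TPM in ENR. In replicates 1 to 3 none of these was called and each was lower in 8C (*Fos* -0.81, *Fosb* -1.12, *Egr1* -0.53), while *Dusp1* fell by 1.20 (adjusted p = 0.0011), 1 of 10 beside 17.7% of genes. The difference between the sets was itself past the threshold for *Fos* (2.93, adjusted p = 0.0101), *Fosb* (3.23, adjusted p = 0.0101), *Jun* (0.85, adjusted p = 0.0103) and *Egr1* (2.62, adjusted p = 0.00113), 4 of 10 members beside 17.3% of genes. This term has no minimum fold.

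VPA and EPZ6438 were each examined in the 8C base, where 8C, 8C -V, 8C -E and 8C -VE form a complete layout. With all replicates no member was called in any of the 5 comparisons among them or in the interaction of the drugs. The genes called overall made up 10.7% for 8C against 8C -VE, 4.18% for 8C -E against 8C -VE (VPA added), 3.22% for 8C -V against 8C -VE (EPZ6438 added), 5.2% for 8C against 8C -V, 4.2% for 8C against 8C -E and 0.653% for the interaction. The unadjusted p was under 0.05 for *Fosl2* in 8C -V against 8C -VE (-0.40) and *Jun* in 8C against 8C -V (0.96), beside 14.1% and 25.4% of genes. It was under 0.05 for no member in 8C against 8C -VE (34.2% of genes), 8C -E against 8C -VE (20.8%), 8C against 8C -E (14.7%) or the interaction (3.81%). *Jun* ran from 116 to 502 TPM in 8C (median 341) and from 89.0 to 214 TPM in 8C -V, and the groups overlapped.

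*Jun* and *Egr1* accounted for most of the calls within replicates 4 to 6. *Jun* read 457, 436 and 341 TPM in 8C, 190.2, 214 and 114 TPM in 8C -V, 191, 206 and 143 TPM in 8C -E, and 182, 201 and 131 TPM in 8C -VE. Within these replicates all 3 libraries of 8C lay above every library that lacked either drug. Replicate 7 of 8C -E (483 TPM) and of 8C -VE (350 TPM) lay above the lowest of the 3. The log2 difference of 8C was 1.28 from 8C -V (adjusted p = 0.0043), 1.19 from 8C -E (adjusted p = 0.0006) and 1.27 from 8C -VE (adjusted p = 0.00051). *Egr1* rose by 1.03, 1.11 and 1.49 in the same comparisons (adjusted p = 0.0052, 0.008 and 0.00025). *Dusp1* rose against 8C -E (1.14) and 8C -VE (1.02), and *Fos* against 8C -VE (1.06, adjusted p = 0.014). The members called were 4 of 10 against 8C -VE, 3 against 8C -E and 2 against 8C -V, beside 12.8%, 5.84% and 9.07% of genes. These comparisons share the 8C libraries. Over all replicates, summed enterocyte markers (7 genes) had medians of 2388 TPM in 8C, 2719 in 8C -V, 2345 in 8C -E and 3643 in 8C -VE. Their ranges overlapped, and their part was not tested.

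In replicates 1 to 3 neither *Jun* nor *Egr1* was called in those comparisons, and *Jun* read 121, 152 and 116 TPM in 8C and 135, 154 and 149 TPM in 8C -VE. *Atf3* was instead lower in 8C than in 8C -E by 1.15 on the log2 scale (adjusted p = 0.010), at 13.6, 16.5 and 14.7 TPM against 36.3, 40.9 and 26.6 TPM. It was also higher with VPA alone than in 8C -VE (1.08, adjusted p = 0.00018), and its interaction term was -1.76 (adjusted p = 0.00077). It was the 1 of 10 members called in each of these 3 fits, beside 6.11%, 5.59% and 2.96% of genes. *Dusp1*, higher in 8C than in 8C -VE in replicates 4 to 6, was lower here (-0.86, adjusted p = 0.0077), under 2-fold. The difference between sets passed the threshold for *Jun* (1.45), *Egr1* (1.42) and *Dusp1* (1.88) in 8C against 8C -VE, for *Jun* (1.26) and *Dusp1* (1.59) against 8C -E and for *Dusp1* (1.43) against 8C -V. That was 3, 2 and 1 of 10 members, beside 11.5%, 6.64% and 10.9% of genes.

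The base medium and the drugs in ENR were compared in the same way. For 8C -VE against ENR no member was called (3.19% of genes), and only *Dusp1* had an unadjusted p under 0.05 (-0.81 ± 0.31, adjusted p = 0.13), beside 22.4% of genes. In replicates 4 to 6, *Fos* rose by 1.06 (adjusted p = 0.030) and *Dusp1* fell by 1.12 (adjusted p = 0.006), 2 of 10 beside 4.59%. In replicates 1 to 3 none was called, beside 6.71% of genes, with *Fos* at 0.16 (adjusted p = 0.48) and *Dusp1* at -0.34 (adjusted p = 0.014). Summed enterocyte markers were 1559 to 4113 TPM in 8C -VE (median 3643) and 2352 to 13078 TPM in ENR (median 7381). Their part was not tested. For ENR +VE against ENR none was called (8.87%), and only *Fosl2* had an unadjusted p under 0.05 (-0.74 ± 0.30, adjusted p = 0.12), beside 31.3% of genes. *Dusp1* read 22.8, 25.0 and 21.9 TPM in ENR +VE and 25.9 to 125 TPM in ENR, without overlap, as did 4.5% of genes on the lower side. Against ENR replicates 4 to 6 alone, *Egr1* rose by 1.14 (adjusted p = 0.0011) and *Atf3* fell by 1.23 (adjusted p = 0.0033), 2 of 10 beside 13.7%. Against ENR replicates 1 to 3, none was called, beside 11% of genes, and *Atf3* then differed in the opposite direction, by 0.93 (adjusted p = 0.0014), under 2-fold.

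**Figure D2:**
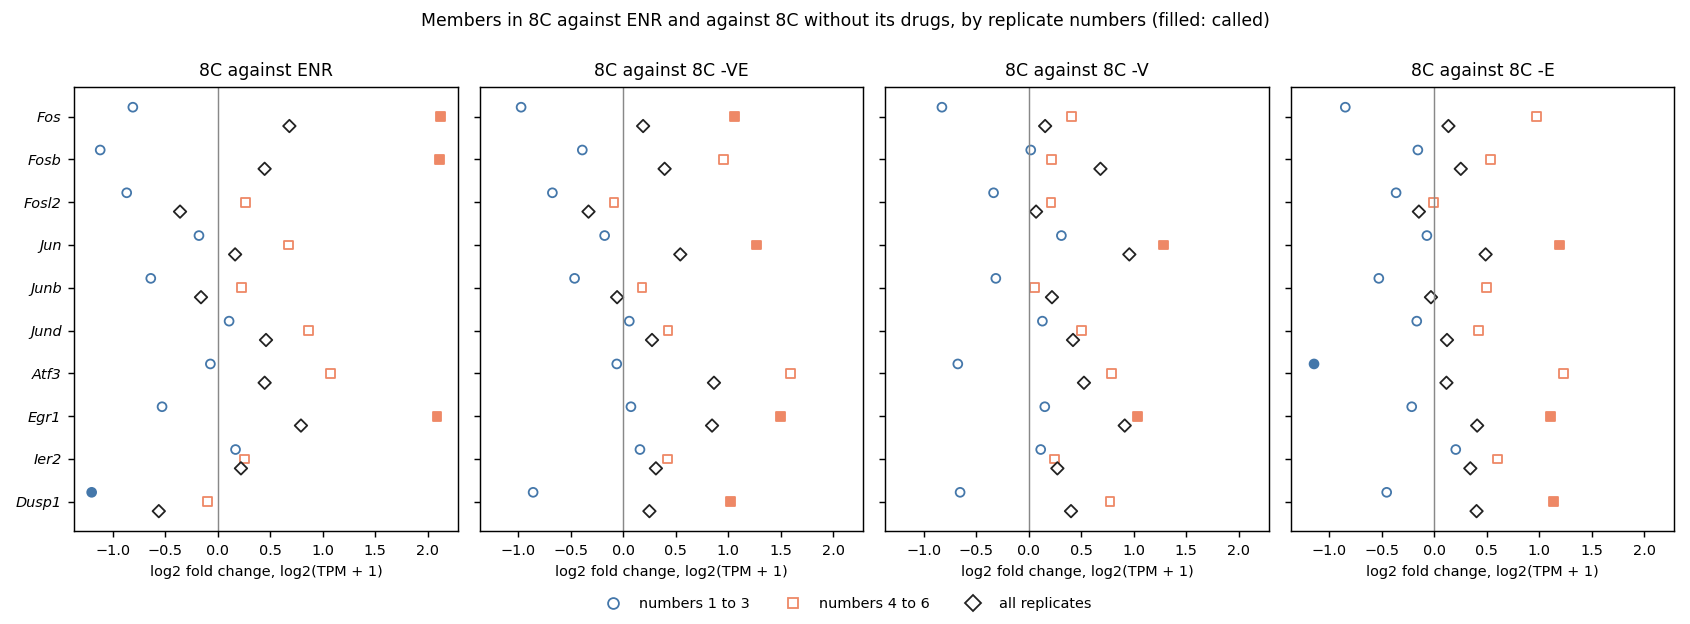
Log2 fold change of each member, on the log2(TPM + 1) scale, in 8C against ENR, 8C -VE, 8C -V and 8C -E, from replicates 1 to 3 (circles), 4 to 6 (squares) or all replicates (diamonds), with filled markers where a member was called. For 8C against ENR the 2 sets lie on opposite sides of 0 for *Fos* (-0.81 and 2.12), *Fosb* and *Egr1*, and no diamond is filled.

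Omission of single components from 8C asked which of them set the level. 8C -EGF stood highest. *Ier2* read 1397, 1124 and 1065 TPM without EGF and 305 to 823 TPM in the 7 libraries of 8C (median 637). *Jun* read 779, 673 and 529 TPM without EGF and 116 to 502 TPM in 8C. Neither gene overlapped between the groups, which held for 2 of 10 members and, on the higher side, for 5.28% of genes. The log2 difference was 1.08 ± 0.29 for *Ier2* (adjusted p = 0.13) and 1.34 ± 0.48 for *Jun* (adjusted p = 0.27), and these were the 2 members with an unadjusted p under 0.05, beside 12.7% of genes. None was called, against 0.451% of genes. Summed enterocyte markers (7 genes) were 711 to 726 TPM without EGF and 1679 to 4216 TPM in 8C. *Fabp1* (-2.36) and *Rbp2* (-1.87) of that list and *Cdx2* (-1.05) of 7 epithelial markers fell, beside 0.179% of all genes called lower. Their part in the members' values was not tested.

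For the other members without EGF the values were 2.13 ± 1.10 for *Atf3*, 1.52 ± 0.70 for *Egr1*, 1.32 ± 1.10 for *Fosb*, 1.27 ± 0.85 for *Fos*, 1.03 ± 0.67 for *Dusp1*, 0.56 ± 0.56 for *Junb* and 0.37 ± 0.32 for *Jund* (log2, SE). *Fosl2* was nearly equal at -0.02 ± 0.37. The median over members was 1.17, against -0.0023 over all genes. *Egr1* read 961, 945 and 538 TPM without EGF, and 8C replicate 7 alone (1043 TPM) lay above all 3. Omission of bFGF, Pexmetinib or GSK3iXV gave 0 called members and 0 with an unadjusted p under 0.05 (0.00779%, 0.482% and 0% of genes called, and 5.56%, 13% and 6.53% with an unadjusted p under 0.05). *Fos* read 1153, 978 and 596 TPM in 8C -bFGF, 1032, 1096 and 672 TPM in 8C -Pex, and 787, 894 and 437 TPM in 8C -GSK3i, all inside the range of 8C.

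These counts differed with the 8C libraries taken as the reference. Against 8C replicates 1 to 3, 8 members rose without EGF (3.56% of genes called), with *Atf3* up by 4.25, *Fosb* by 3.21, *Egr1* by 2.85, *Fos* by 2.80, *Jun* by 2.33, *Dusp1* by 2.26, *Ier2* by 1.55 and *Junb* by 1.38. Likewise 6 rose without bFGF (5.53%), 7 without Pexmetinib (6.25%) and 6 without GSK3iXV (7.12%). These 4 comparisons share their 3 reference libraries. Against 8C replicates 4 to 6, 0 were called in any of the 4 (2.67%, 0.00784%, 0.821% and 0.0551% of genes). Without EGF, *Ier2* (0.79, adjusted p = 0.0069) and *Jun* (0.68, adjusted p = 0.029) then differed by less than 2-fold. Every omission library was labelled 1 to 3, and which 8C replicates were grown beside them is not stated. Their summed red blood cell markers, 2.79 to 7.31 TPM, lay nearer those of replicates 4 to 6 of the 5 conditions above (2.00 to 6.79 TPM) than those of replicates 1 to 3 (0 to 3.26 TPM), and the part of this in the counts was not tested.

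**Figure D3:**
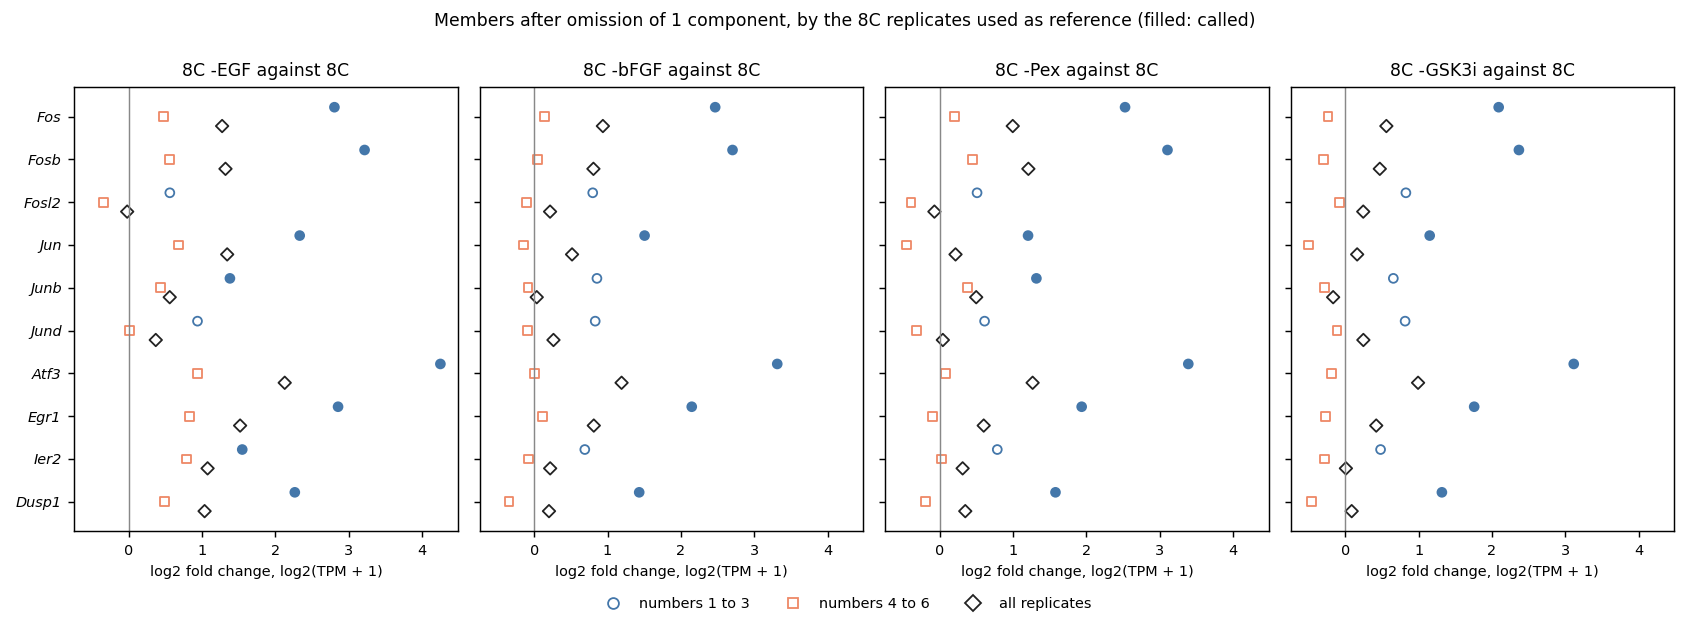
Log2 fold change of each member after omission of 1 component, on the log2(TPM + 1) scale, against 8C replicates 1 to 3 (circles), 4 to 6 (squares) or all 7 (diamonds), with filled markers where a member was called. Filled circles run from 1.15 (*Jun*, 8C -GSK3i) to 4.25 (*Atf3*, 8C -EGF), whereas no square or diamond is filled.

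Neighbouring genes of the pathway were read from lists chosen with earlier results known, beside 11.9% of all genes called higher and 3.31% called lower in 8C against ENR. Among 9 other AP-1 subunits tested in 8C against ENR, only *Jdp2*, which encodes a repressive JUN partner, rose (2.80, adjusted p = 1.1e-06), and it also rose in ENR +VE against ENR (1.39), 8C against 8C -VE (2.10) and 8C against 8C -V (1.33). Of 23 upstream kinases and serum response factors, 3 rose in 8C against ENR, a share near that of all genes: *Mapk11*, the beta form of p38 (4.01), *Elk3*, a ternary complex factor (3.09), and *Mapk12*, the gamma form of p38 (2.54). The same 3 rose in ENR +VE against ENR (3.08, 2.18 and 2.17), in 8C against 8C -VE (2.69, 2.31 and 2.21) and in 8C -E against 8C -VE (2.15, 1.22 and 1.5). *Mapk12* (1.38) and *Elk3* (1.16) rose in 8C -V against 8C -VE, *Mapk11* (2.30) and *Elk3* (1.15) in 8C against 8C -V, *Elk3* (1.09) in 8C against 8C -E and *Mapk11* (1.33) in 8C -VE against ENR. None was called in the omissions.

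Of 22 other immediate early genes in 8C against ENR, where 11.9% of all genes were called higher, 2 rose, *Klf2*, a Krüppel-like factor (1.93, adjusted p = 0.024), and *Rhob*, a small GTPase (1.65). *Sgk1*, a serum-induced kinase, fell by 1.38 and *Dusp6*, the ERK phosphatase, rose by 1.06 in 8C -VE against ENR, and *Sgk1* rose by 1.10 in 8C against 8C -VE. *Egr2*, a paralogue of *Egr1*, rose by 2.30 without EGF (adjusted p = 0.018), the only gene of 23 on this list called in the omissions. Of 8 AP-1 target genes in 8C against ENR, 4 rose, beside the same 11.9%: the protease *Plau* (1.59), its receptor *Plaur* (1.20), the protease inhibitor *Timp1* (1.30) and the hyaluronan receptor *Cd44* (1.06). *Plau* (1.15) and *Timp1* (1.12) also rose in 8C against 8C -E, *Plau* had a positive interaction term (1.14), and the metallothionein *Mt2* fell by 1.24 in 8C -VE against ENR. Among heat shock genes, *Hspb1* (5.34) and *Hspa1b* (1.69) rose in 8C against ENR, 2 of 10 tested beside the same 11.9%. In the same comparison 6 of 7 enterocyte markers fell and 0 of 7 epithelial markers were called. *Cd79b*, the 1 immune marker tested there, was not called (-0.95), but it fell in ENR +VE against ENR (-1.41), 8C against 8C -VE (-1.17) and 8C -E against 8C -VE (-1.49). *Hbb-bs*, the 1 red blood cell marker tested, was not called in any organoid comparison, and no stromal marker passed the filter in 8C against ENR.

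Irradiated crypts held far less of every member than unirradiated crypts by day 3. *Fos* read 480.1 and 848 TPM in Normal crypts, 419.8 and 168 TPM at day 1, 103.5 and 44.9 TPM at day 2, 25.3 and 25.0 TPM at day 3, and 104 and 57.0 TPM at day 5. Each later day lay below both Normal libraries. *Egr1* read 108 and 185 TPM in Normal and 2.45 and 1.98 TPM at day 3. *Jun* read 261 and 432 TPM in Normal and 11.3 and 12.2 TPM at day 3. *Jund*, the steadiest member in organoids, read 404.8 and 405.2 TPM in Normal and 60.4 and 69.9 TPM at day 3. At day 3 all 10 members fell, beside 51.3% of genes called lower, and no member overlapped Normal, as held for 79.3% of genes. The log2 falls were largest for *Fosb* (-5.80 ± 0.75), *Egr1* (-5.47 ± 0.58), *Jun* (-4.73 ± 0.54) and *Fos* (-4.61 ± 0.50), and smallest for *Fosl2* (-1.96 ± 0.36, SE, limma adjusted p = 0.000215 or less for all 10).

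Much of the transcriptome was lower in the same libraries. The median log2 difference over members from Normal was -1.42 at day 1, -3.26 at day 2, -3.93 at day 3 and -3.38 at day 5, against -0.36, -0.61, -1.03 and 0.27 over all 10802 genes tested. Scaling shifts the latter: with quantile normalization the median over all genes was 0.0017 at day 3 and that over members -2.89, with 9 of 10 called beside 24.7% of genes called in either direction. With mitochondrial genes removed and TPM rescaled the medians were -0.57 and -3.32, with 10 called beside 36.1% of genes.

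At day 1, 5 members fell (5.48% of genes lower): *Ier2* (-1.79), *Jun* (-1.76, adjusted p = 0.0499), *Atf3* (-1.73), *Junb* (-1.44) and *Jund* (-1.21). This count rested on single libraries. It was 9 without IR day 1 replicate 1, 1 without IR day 1 replicate 2 and 3 without Normal replicate 2. For *Fosb* these libraries read 79.7 and 11.8 TPM at day 1 and 86.05 and 180.0 TPM in Normal. At day 2, 9 fell (26.2% lower), all but *Fosl2* (-0.12 ± 0.36), whose value was 0.56 with quantile normalization and 0.28 with mitochondrial genes removed. The largest falls were those of *Fosb* (-4.89), *Atf3* (-4.75) and *Egr1* (-4.08).

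At day 5 again 9 members fell, beside 5.61% of genes called lower, and *Fosl2* was not called (0.21 ± 0.36, and -0.04 with quantile normalization). *Atf3* fell by 5.21 on the log2 scale, from 158 and 254 TPM in Normal to 5.23 and 3.76 TPM, and *Fosb* fell by 4.97. *Dusp1*, the phosphatase that limits p38 and JNK, fell by 3.94, from 132 and 180.0 TPM to 10.8 and 7.65 TPM, lower than at day 3 (33.8 and 30.9 TPM). The others that fell were *Jun* (-3.95), *Egr1* (-3.71), *Ier2* (-3.05), *Fos* (-3.03), *Junb* (-3.02) and *Jund* (-1.39). In the order of the 9 crypt groups, Normal was highest for 9 members, above the next group by more than the larger SD. *Fosl2* was highest in IR day 2 +VE, at 13.9 and 14.2 TPM. IR day 3 was lowest for 7 members.

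**Figure D4:**
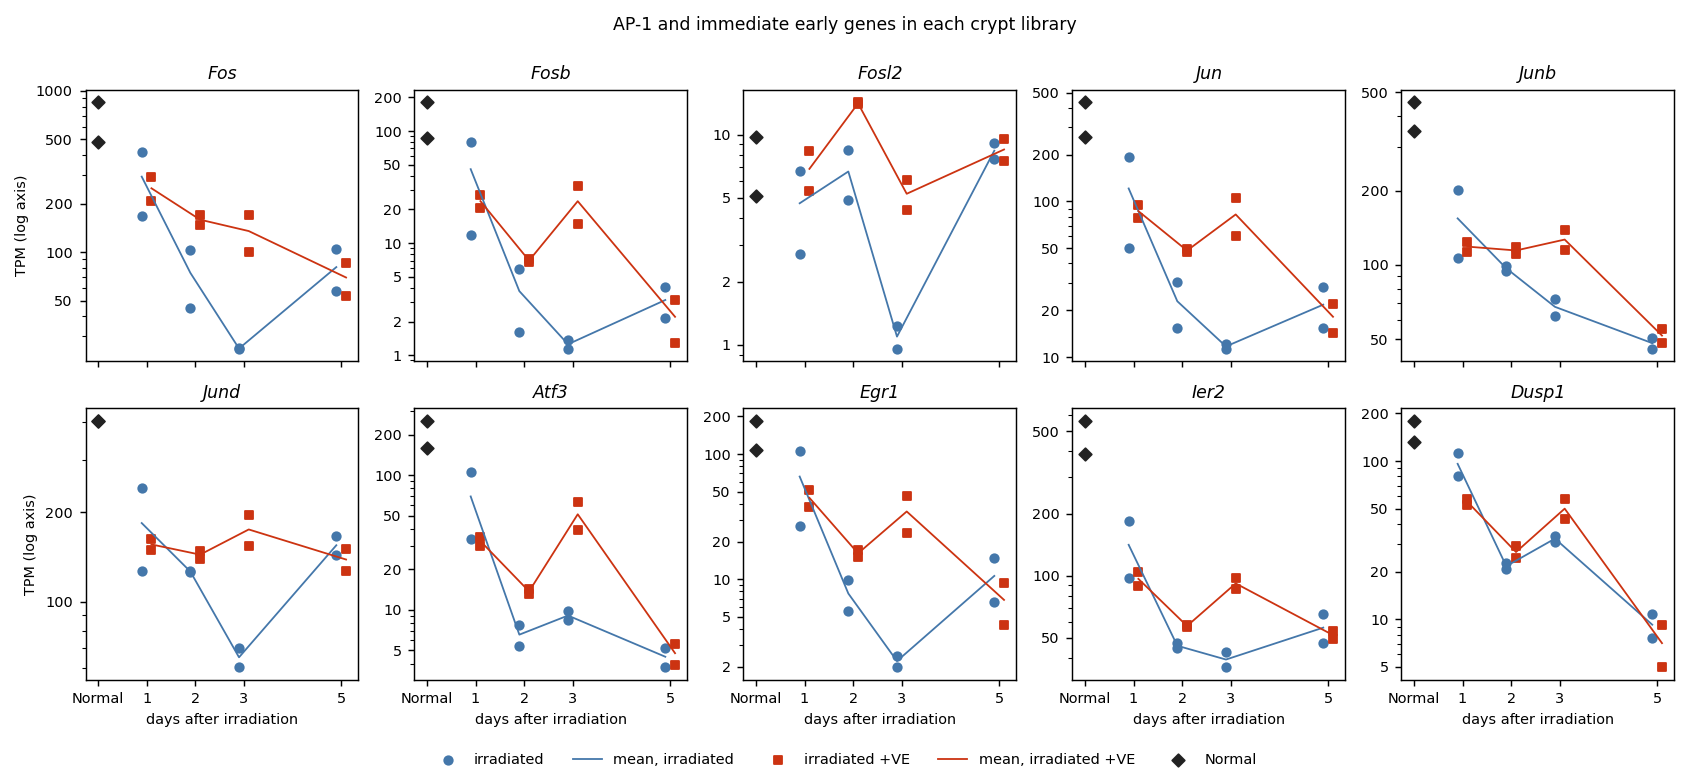
TPM of each member (log axis) in every crypt library, 2 per group, for Normal crypts and crypts 1, 2, 3 and 5 days after 12 Gy, irradiated alone or with VPA and EPZ6438. At day 3 the treated libraries lie above the untreated ones for all 10 members (*Egr1* 46.0 and 23.6 against 2.45 and 1.98 TPM), and for all but *Fosl2* they lie below both Normal libraries.

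Other cell types in the preparations moved as well. Summed immune markers were 48.9 to 74.1 TPM in Normal, 17.3 to 32.1 at day 1, 32.4 to 32.6 at day 2, 25.4 to 65.3 at day 3 and 4.96 to 9.57 at day 5. Red blood cell markers were 14.9 to 107 TPM in Normal and at most 7.97 TPM in every other group. Stromal and endothelial markers were 3.34 to 5.58 TPM in Normal and 0.55 to 0.94 TPM at day 3. Epithelial markers were 3854 to 4775 TPM in Normal and 2483 to 3661 TPM at day 3. Of these 7 genes, 5 then fell, beside 51.3% of all genes called lower, and *Krt18* rose (1.22). Enterocyte markers were 6917 to 13752 TPM in Normal, 32258 to 39974 TPM at day 2 and 2233 to 8073 TPM at day 3. Mitochondrial genes took 12.7% to 18.1% of TPM in Normal, 37.9% to 48.4% at day 3 and 11.8% to 12.3% at day 5. The number of genes at 1 TPM or more was 8152 to 8564 at day 3 and 10606 to 11089 in Normal. Of 3 red blood cell markers tested, *Hbb-bs* (-4.07), *Hba-a1* (-2.27) and *Hba-a2* (-1.96) fell at day 3, beside the same 51.3% of genes. Their part in the falls was not tested.

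Crypts given VPA and EPZ6438 after irradiation held more of most members at day 3. *Egr1* read 2.45 and 1.98 TPM in IR day 3 and 46.0 and 23.6 TPM with the drugs. *Jun* read 11.3 and 12.2 TPM without and 105 and 59.8 TPM with them. *Fosb* read 1.37 and 1.14 TPM without and 32.6 and 14.7 TPM with them. The groups did not overlap for any of the 10 members, as held for 71.1% of genes on the higher side. In limma 8 rose, beside 31.6% of genes called higher: *Egr1* by 3.41 ± 0.58 (adjusted p = 0.000799), *Fosb* by 3.35, *Jun* by 2.66, *Atf3* by 2.34, *Fos* by 2.33, *Fosl2* by 1.56, *Jund* by 1.40 and *Ier2* by 1.20. *Junb* differed by 0.89 ± 0.24 (adjusted p = 0.00705), under 2-fold, and *Dusp1* by 0.60 ± 0.27 (adjusted p = 0.0712). With the drugs each member but *Fosl2* was still below both Normal libraries.

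The median over members was 1.95 against 0.69 over all genes. With quantile normalization these were 1.38 and -0.05, with 6 members called beside 11.5% of genes in either direction, and with mitochondrial genes removed 1.84 and 0.56, with 7 called beside 27.1%. Epithelial markers summed to 2483 to 3661 TPM in IR day 3 and 5213 to 5361 TPM in IR day 3 +VE, and the mitochondrial share was 37.9% to 48.4% and 25.4% to 41.5%. Immune markers were 25.4 to 65.3 and 35.6 to 59.0 TPM. Stromal and endothelial markers were 0.55 to 0.94 and 2.42 to 6.31 TPM. Their part in the rise was not tested.

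At the other days the drugs gave no call. At day 1 none was called (0.00926% of genes), and only *Dusp1* had an unadjusted p under 0.05 (-0.77 ± 0.27), beside 13.2% of genes. At that day 9 of 10 members had a negative value, whereas 85.6% of all genes had a positive one. At day 5 none was called (0.0185%) and none had an unadjusted p under 0.05 (1.65%). At day 2 none was called either (8.31% of genes higher), although every treated library lay above every untreated one for all 10 members, as it did for 67.7% of genes. *Fos* read 103.5 and 44.9 TPM without the drugs and 169.9 and 148 TPM with them, a difference of 1.20 ± 0.50 (adjusted p = 0.10). *Fosl2* (1.01) and *Atf3* (0.98) were the others with an unadjusted p under 0.05, 3 of 10 beside 36.7% of genes. With quantile normalization 6 of the 10 members stayed higher at day 2, and *Junb*, *Jund*, *Ier2* and *Dusp1* were slightly lower (-0.05 to -0.16), as was *Jund* (-0.03) with mitochondrial genes removed. Without IR day 2 replicate 1, 2 members were called. Epithelial markers summed to 4788 to 4795 TPM in IR day 2 and 6792 to 7285 TPM in IR day 2 +VE. Enterocyte markers summed to 32258 to 39974 and 49847 to 54794 TPM, and the mitochondrial share was 32.6% to 39.9% and 26.3% to 29.2%. Their part was not tested.

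Over the 4 days together none was called (3.55% of genes). Of the members 7 had an unadjusted p under 0.05, beside 61% of genes, and *Fosl2* (0.78 ± 0.18, adjusted p = 0.0028), *Fos* (0.81), *Jun* (0.84), *Egr1* (0.90), *Atf3* (0.63) and *Jund* (0.32) had an adjusted p under 0.05 with less than 2-fold. Without IR day 1 replicate 1, 3 members were called, and 1 was called without IR day 2 replicate 1, IR day 3 +VE replicate 2, IR day 5 replicate 1 or IR day 5 +VE replicate 2. Whether the effect differed between days was tested with an F test that has no minimum fold. It passed for *Atf3* (adjusted p = 0.0468) and *Jund* (adjusted p = 0.0489), 2 of 10 beside 1.75% of genes, and all 10 members had an unadjusted p under 0.05, beside 28.1%. For *Atf3* the day values were -0.86, 0.98, 2.34 and 0.07, and for *Jund* -0.17, 0.19, 1.40 and -0.16. The count was 10 without IR day 1 replicate 2, 6 without IR day 1 replicate 1, 1 without IR day 2 replicate 1, 0 without any other single library, and 0 with quantile normalization, with mitochondrial genes removed or with no minimum TPM.

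**Figure D5:**
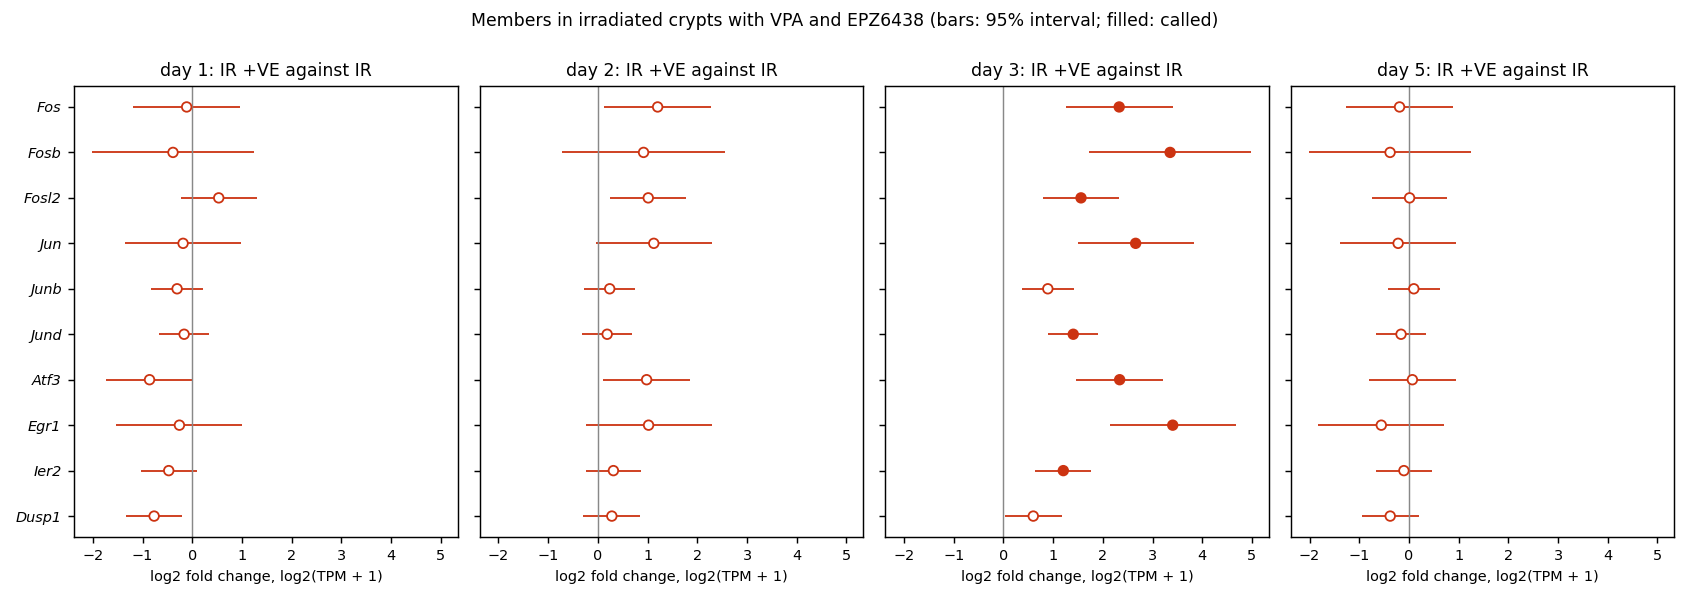
Log2 difference of each member between IR +VE and IR crypts at days 1, 2, 3 and 5, on the log2(TPM + 1) scale, with bars for the 95% interval and filled markers where a member was called. Only day 3 has filled markers, 8 of 10, from 1.20 for *Ier2* to 3.41 for *Egr1*.

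The wider lists in crypts are read against all genes, of which 5.48%, 26.2%, 51.3% and 5.61% were called lower at days 1, 2, 3 and 5 and 31.6% were called higher with the drugs at day 3. Of 9 other AP-1 subunits, 1, 3, 6 and 2 fell at these days, with *Mafk* (-2.40) and *Maff* (-1.72), small MAF proteins, lowest at day 3. With the drugs at day 3, 6 of 9 rose, led by *Fosl1* (1.89), the growth-factor-induced FOS gene, and *Mafg* (1.54). Of 20 other immediate early genes, 5, 10, 14 and 12 fell. At day 3 these included *Zfp36*, which degrades cytokine mRNA (-4.56), *Ppp1r15a*, the stress phosphatase subunit (-4.09), and the nuclear receptor *Nr4a1* (-3.85). Higher were 2, 3, 1 and 1, beside 1.43%, 4.55%, 2.56% and 10.2% of genes, among them *Sgk1* (2.67 at day 1, 3.63 at day 2 and 3.75 at day 5) and *Dusp6* (2.07, 2.73 and 1.36 at days 1, 2 and 3). With the drugs at day 3, 14 of 20 rose, including *Klf4* (2.93), *Ppp1r15a* (2.90), *Nr4a1* (2.61) and *Myc* (2.27). *Klf4* was the 1 gene of the list called over the 4 days (1.32). The effect differed between days for *Myc*, *Phlda1* and *Dusp5*.

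Of 19 upstream kinases and serum response factors, *Srf* itself fell at days 1, 2 and 3 (-1.23, -1.56 and -2.15). At day 3, 10 fell, beside the 51.3% of all genes, including the kinase *Rps6ka1* (-1.97) and the ternary complex factor *Elk4* (-2.05), and *Mapk11* rose (1.25). At day 5, 3 rose and none fell. With the drugs at day 3, 7 rose, beside the 31.6% of all genes, including *Elk4* (1.56) and *Srf* (1.07). Among 6 AP-1 targets, 1, 3, 2 and 3 were called higher and 1, 1, 2 and 1 lower at days 1, 2, 3 and 5, and their summed TPM (12 listed genes) was 225 to 380 in Normal, 1222 to 1692 at day 2 and 166 to 211 at day 3. *Hbegf*, an EGF receptor ligand, fell at days 1, 2, 3 and 5 (-1.45, -3.73, -4.40 and -4.15), while *Cd44* rose by 1.22, 1.61, 1.19 and 1.74. With the drugs at day 3, 5 of 6 rose, with *Hbegf* at 2.03 and *Cd44* at 2.00. Of 10 heat shock genes 1, 4, 4 and 2 fell, led at day 3 by *Dnajb1* (-2.12), *Hsp90aa1* (1.47) and *Hspd1* (1.16) rose at day 5, and 5 rose with the drugs at day 3, led by *Hspa1a* (2.21).

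Across libraries the members varied together. Over the 49 organoid libraries all 45 correlations between members of log2(TPM + 1) were positive, with Pearson r from 0.21 to 0.93 and a median of 0.81, where members and other genes had a median of -0.07. With each condition centred on its own mean the median was 0.85. Over the 18 crypt libraries 44 of 45 were positive, from -0.18 (*Fosl2* with *Dusp1*) to 0.99 (*Fosb* with *Jun*), with a median of 0.88, where members and other genes had a median of 0.19. With each group centred these medians were 0.83 and 0.29. These values describe libraries that share media, replicate sets and scaling, and carry no test.

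For each member the gene outside the 10 with the most similar pattern over libraries was found, by Pearson r of log2(TPM + 1). In organoids *Hbegf* was most like *Fosb* (r = 0.92), *Atf3* (0.90) and *Fos* (0.89). *Zfp36* was most like *Dusp1* (0.93) and *Junb* (0.90), *Trib1* like *Jun* (0.84), *Klf2* like *Jund* (0.86), the neuronal immediate early gene *Arc* like *Egr1* (0.86), and *Egr2* like *Ier2* (0.84). *Fosl2* differed, being most like *Mst1r* (0.87), *Mfsd4a* (0.85) and *Trim16* (0.81). In crypts (n = 18) *Zfp36* was most like *Fos* (0.99) and *Egr1* (0.97), *Hbegf* like *Jun* (0.98), *Nfkbia* like *Fosb* (0.98), *Klf2* like *Atf3* (0.98), *Dusp5* like *Ier2* (0.98), *Rhob* like *Junb* (0.98), *Zc3h12a* like *Jund* (0.97), *Csrnp1* like *Dusp1* (0.93) and *Dgkd* like *Fosl2* (0.99).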

How the data were processed

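Bulk RNA-seq of 49 organoid and 18 crypt libraries was read from the TPM table the authors deposited. Per the labels and the study's methods, libraries were made with NEBNext Ultra kits, and reads were trimmed with Trimmomatic 0.39, aligned to mm10 with STAR 2.7.3a and counted with featureCounts. How counts became TPM, and the strand setting, are not given in the sources used here. The depth behind a TPM value is unknown, so no counting interval is given.

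Here log2(TPM + 1) was tested with limma 3.58.1 (R 4.3.3, eBayes with trend and robust) on genes whose mean over the libraries compared was 1 TPM or more, with Benjamini-Hochberg adjustment over all genes tested. A gene was called at adjusted p under 0.05 and at least 2-fold. The interaction, the difference between replicate sets and the F test between days had no minimum fold. A fold change is on the log2(TPM + 1) scale and understates the change of low genes. Each organoid fit held the groups compared, and the 9 crypt groups shared 1 fit. Scripts were tested on simulated data.

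The members and the lists (other AP-1 subunits, other immediate early genes, upstream kinases and serum response factors, AP-1 targets, heat shock genes, and epithelial, enterocyte, immune, stromal and endothelial, muscle and red blood cell markers) were chosen with earlier results of these data known. The rule for named genes took all members, from each list up to 5 called genes of largest change (all of a list where 5 or fewer were tested), and the 3 genes most like each member by Pearson r, members and predicted genes skipped. The text prints part of these. The difference between replicate sets was tested after the data were seen. Samples sharing a number deviated together in every pair for 8C -VE against ENR (mean r = 0.46), 8C -E against 8C -VE (0.73), 8C -V against 8C -VE (0.72) and 8C against 8C -V (0.42), from the data and not the labels, and a replicate block there changed no call. Alternatives were another pseudocount, filter and normalization, the block, replicate sets, and leaving out each library. Organoid fits were also run without all libraries numbered 7, a setting added after the plan. Sequences are from RefSeq (GRCm38.p6). The element TGACG was added after the sequences were seen.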

Additional observations from a re-analysis of the deposited data

Results flagged for a closer look

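The libraries numbered 7 stood apart from the others of their condition for many members. Dixon's 95% limit was applied to untransformed TPM in the 50 combinations of a member and a condition with 6 or 7 libraries. It concerns the distance of the highest or the lowest library to the next, as a share of the range of its group. That share passed the limit in 28 combinations. Normally distributed values would give about 1 in 20, and all genes of the same conditions gave 7.64% on either side. The 50 are not independent, since the members vary together (median r of 0.85 with each condition centred). In each of the 28 the library was replicate 7 and the highest, as in 3.5% of combinations over all genes, in 9 combinations each for ENR and 8C -E, 7 for 8C -VE, 3 for 8C and 0 for 8C -V, which has no replicate 7. The share for *Fos* was 0.726 in 8C -E, 0.679 in 8C -VE and 0.776 in ENR. The share for *Fosb* was 0.804 in 8C, 0.724 in 8C -E, 0.739 in 8C -VE and 0.91 in ENR. The share for *Junb* was 0.771 in 8C, 0.904 in 8C -E, 0.856 in 8C -VE and 0.933 in ENR. The share for *Egr1* was 0.581 in 8C, 0.779 in 8C -E, 0.652 in 8C -VE and 0.742 in ENR. The share for *Dusp1* was 0.879 in 8C -E, 0.845 in 8C -VE and 0.659 in ENR. For *Fosl2* it was 0.712 in ENR. For *Jun* it was 0.746 in 8C -E, 0.681 in 8C -VE and 0.712 in ENR. For *Jund* it was 0.612 in 8C -E and 0.708 in ENR. For *Atf3* it was 0.701 in 8C -E, 0.62 in 8C -VE and 0.784 in ENR. For *Ier2* it was 0.704 in 8C -E. The mitochondrial share of TPM was also highest in these 4 libraries, 4.69% to 6.64%, and its part was not tested.

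The medium and drug differences were not the same in replicates 1 to 3 and 4 to 6, by a limma term for the difference between the sets. For 8C against ENR the adjusted p was 0.0101 for *Fos*, 0.0101 for *Fosb*, 0.0103 for *Jun* and 0.00113 for *Egr1*. For 8C against 8C -VE it was 0.00275 for *Jun*, 0.0343 for *Egr1* and 0.00354 for *Dusp1*, for 8C against 8C -E 0.0148 for *Jun* and 0.0206 for *Dusp1*, and for 8C against 8C -V 0.038 for *Dusp1*. All 10 were positive in replicates 4 to 6, and 9 were negative in replicates 1 to 3, the exception being *Egr1* in 8C against 8C -VE (0.07).

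The difference between IR +VE and IR crypts varied between days for *Atf3* (limma F test, adjusted p = 0.0468) and *Jund* (adjusted p = 0.0489). The count of 2 members ranged from 0 to 10 on leaving out single libraries, and was 0 with quantile normalization, with mitochondrial genes removed or with no minimum TPM.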

How the results depend on the processing

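Counts are of members called, with limma throughout. Within replicates 4 to 6 the count changed from 0 to 3 for 8C against ENR, 2 for 8C -VE against ENR, 4 for 8C against 8C -VE, 2 for 8C against 8C -V and 3 for 8C against 8C -E, and to 2 for ENR +VE against ENR with ENR replicates 4 to 6. Within replicates 1 to 3 it became 1 for 8C against ENR, 1 for 8C -E against 8C -VE, 1 for 8C against 8C -E and 1 for the interaction (beside 17.7%, 5.59%, 6.11% and 2.96% of genes), and with 8C replicates 1 to 3 it became 8 for 8C -EGF, 6 for 8C -bFGF, 7 for 8C -Pex and 6 for 8C -GSK3i. *Atf3* in 8C against 8C -E turned from 0.12 to -1.15 in replicates 1 to 3. With a replicate block the omissions gave 4, 6, 7 and 6 in the same order, although same-numbered libraries did not deviate together there, and pairing 8C replicates 4 to 6 with the omissions, chosen after seeing the data, gave 0. With all 10 organoid groups in the fit 8C -EGF gave 1. For IR day 1 against Normal, 5 became 2 with quantile normalization, 2 with mitochondrial genes removed, 0 with the 2 groups compared only, 6 with the replicate block and 8 with the Normal numbers crossed. IR day 2 +VE against IR day 2 gave 3 with the 2 groups only. With a pseudocount of 0.1 the mean over the 4 days gave 2 and the difference between days 4, and the latter gave 0 with no minimum TPM, with quantile normalization and with mitochondrial genes removed, and 3 with the block. The cause was not tested.

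Leaving out each library gave 0 to 0 in the 13 organoid results, 1 to 9 for IR day 1 against Normal, 9 to 9 at days 2 and 5, 10 to 10 at day 3, 0 to 0 for IR +VE against IR at days 1 and 5, 0 to 2 at day 2, 8 to 9 at day 3, 0 to 3 over the 4 days and 0 to 10 for the difference between days. Of the counts under other settings, 138 stayed within 1.5 times the reported count and 29 did not. Blocks changed no other call count beyond that. The unknown depth limits what a low TPM can show.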
